A study of Mus musculus with 42 samples.

Results

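Sox7, Sox17 and Sox18 form the SoxF subgroup of the SOX transcription factors, and their RNA was followed through differentiation of mouse embryonic stem cells (mESCs) into anterior definitive endoderm (ADE). The 3 genes were found on the arrays by the RefSeq accessions of their probes, which gave 4 probes of 55681: 2 for Sox17, 1 for Sox7 and 1 for Sox18. They are 3 of the 20972 genes that could be named. SOX proteins bind DNA through an HMG box, and the SoxF proteins also carry a transactivation domain at the C-terminal end. Sox17 is required to form the definitive endoderm, the layer that gives rise to the gut and its organs, and it also acts in extraembryonic endoderm and in haemogenic endothelium. Sox7 is known from extraembryonic, above all parietal, endoderm and from blood and vessel precursors, and Sox18 from the endothelium of growing blood and lymphatic vessels.

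All cells came from 1 mESC line with a pair of reporters, GFP for Gsc and RedStar for Hhex, both genes of the anterior endoderm. In the untreated series RNA was taken from mESCs, from unsorted day 2 (d2) cultures and from sorted cells, which were G- and G+ (Gsc reporter off and on) at d3 and d4, G-, Glow and Ghigh at d5, and G+H- and G+H+ (Hhex reporter off and on) at d6. In the EPZ6438 series d6 cultures came from 3 regimens: DMSO alone (Control), 2.5 µM EPZ6438 during differentiation (ADE_EPZ), and EPZ6438 in mESCs followed by DMSO during differentiation (ES_EPZ). EPZ6438 inhibits EZH2, the enzyme of the PRC2 complex that methylates lysine 27 of histone H3, and the labels name no sort for these 9 cultures. Each of the 14 groups had 3 arrays from independent experiments, 42 in all. Because a single reporter line was used, the spread between arrays does not include differences between lines.

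Levels are log2 intensities after background correction and quantile normalisation. They rank groups for 1 probe and are not comparable between genes. A group difference was called where the limma adjusted p was 0.01 or less and the log2 fold change reached 1.5 in either direction. Each array had between 24504 and 40428 probes well above background by the mark of the scanner software. The untreated arrays filled 5 slides, with replicate 3 on slides scanned on a later day, and the EPZ6438 arrays filled 3 other slides, each with 1 array of every regimen. Series, slide and scan day cannot be told apart, so no test was made between the untreated and the EPZ6438 arrays. In bulk RNA, fewer cells that carry a transcript and less of it per cell cannot be told apart.

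The endoderm identity of the d6 cells was checked on marker RNA. Of 14 definitive endoderm markers, 14 were called higher in d6 G+H+ than in ESCs, against 5.79% of all genes, with a median log2 fold change of 5.67 against 0 over all genes (5.64 with 4 genes not above background in mESCs at their lower bound). The list includes Gsc and Hhex, the genes of the reporters used for the sort. Cer1, a secreted antagonist of Nodal, BMP and Wnt, was at least 2170-fold higher and Gsc at least 329-fold higher, both not above background in mESCs. Foxa2, a pioneer factor of endoderm, was higher by 8.29 on the log2 scale (SE 0.63). Gsc RNA was called higher in G+ than in G- at d3 (3.55, SE 0.47) and d4 (2.41, SE 0.47), yet it was above background on all 3 arrays of each G- group, at means from 8.23 at d3 to 9.30 at d4. Hhex RNA averaged 12.17 in G+H- and 12.63 in G+H+, a difference that was not called. Of 8 naive pluripotency genes, 7 were called lower, against 5.33% of all genes. Tcl1, a coactivator of AKT in stem cells, was at least 296-fold lower.

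Of the 3 genes, Sox17 changed most. Its brightest probe was not well above background on any mESC array, was bright in d5 Ghigh and in both d6 populations, and spanned 4.86 to 12.65 between the lowest and the highest group mean. Sox7 stayed near background until d5 and was well above it on every d6 array. Sox18 was highest in mESCs and at or near background in the other groups. Over the 14 group means Sox17 and Sox7 had a Pearson correlation of 0.74, Sox17 and Sox18 of -0.71, and Sox7 and Sox18 of -0.47, as a description of groups that share slides and normalisation.

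**Figure D1:**
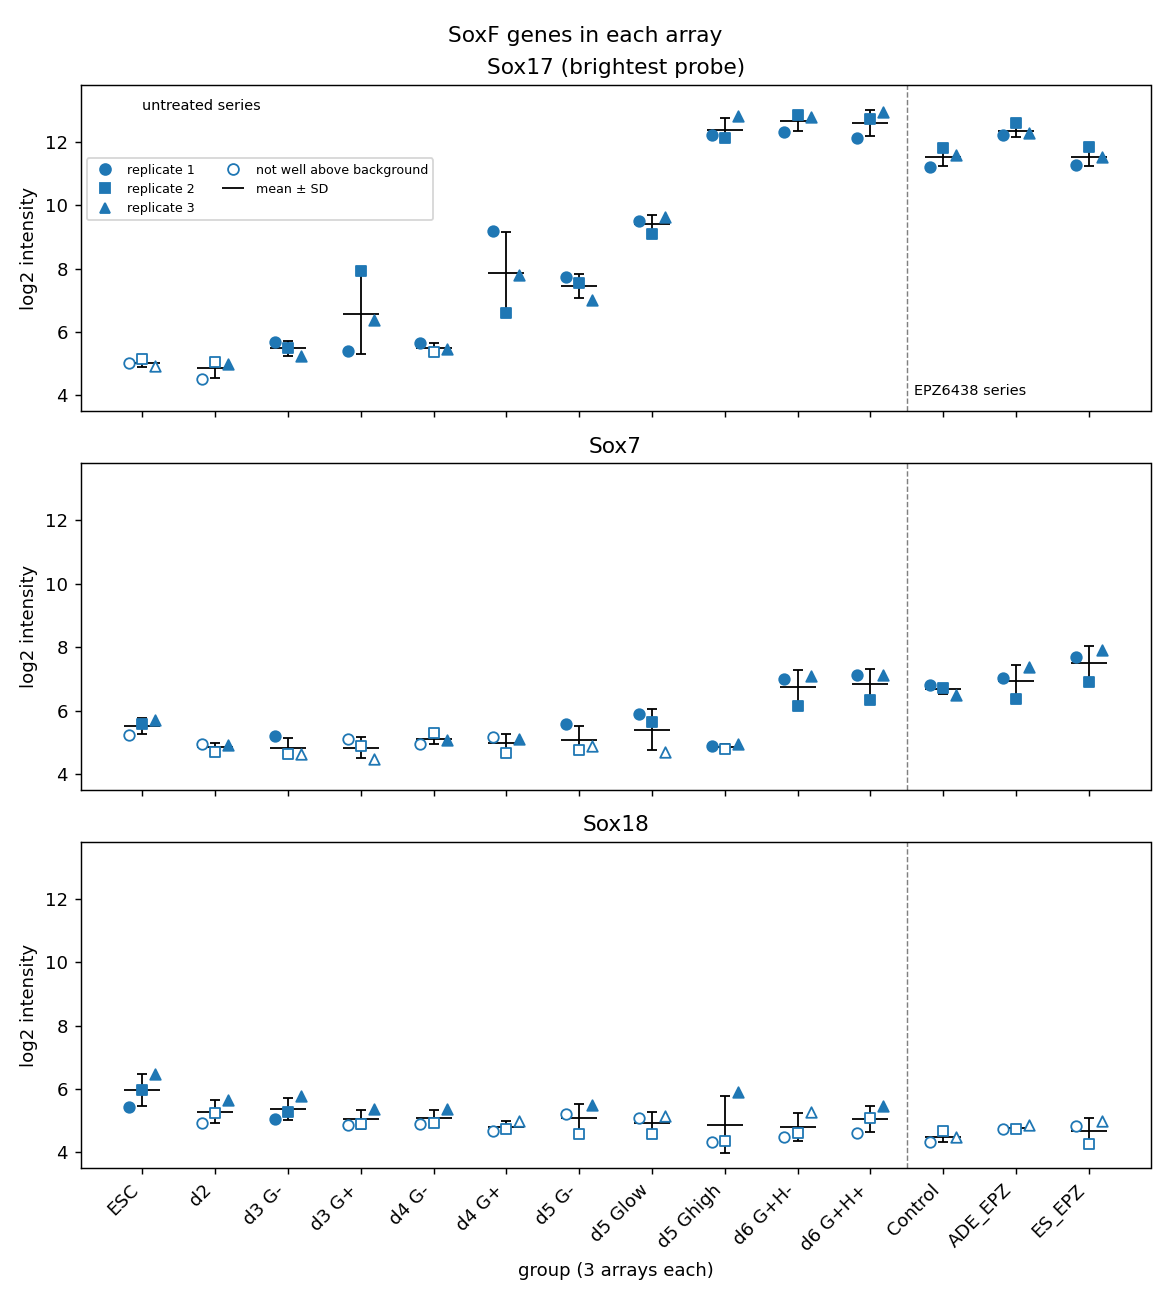
Log2 intensity of Sox17 (brightest probe), Sox7 and Sox18 on each of the 42 arrays, by group, with symbols for the replicates, open symbols for arrays where the probe was not well above background, and bars for mean ± SD (n = 3). Sox17 climbed to group means of 12.38 to 12.65 in d5 Ghigh and the sorted d6 populations. Sox7 was well above background on every array only in the d6 groups, and Sox18 was highest in mESCs at 5.96.

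The 3 mESC arrays read 5.02, 5.14 and 4.92 for Sox17, and the d2 arrays 4.51, 5.06 and 4.99, all for the brightest probe, which was above background on 1 of these 6 arrays. The second probe was above background on 1 of 3 arrays in each of these groups. In d6 G+H+ cells the values were 12.14, 12.71 and 12.94. All 3 d6 arrays lay above every mESC and d2 array. By the brightest probe Sox17 RNA was at least 190-fold higher in d6 G+H+ than in mESCs (log2 fold change 7.57, SE 0.43, limma adjusted p = 9.71e-16), and the difference ranked 10 of 20972 genes. The share of probes called higher in this comparison was 3.22%. The second Sox17 probe gave 6.79 (SE 0.37, 111-fold), the alternatives in processing gave 6.45 to 9.08, and over 42 arrays the probes had a correlation of 0.996.

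Measured from mESCs with the brightest probe, Sox17 was called higher in every population that carried the Gsc reporter, although the d3 G+ call was easily lost. It was at least 2.93-fold higher in d3 G+ (log2 fold change 1.55, SE 0.43, limma adjusted p = 0.00809; 1.49% of probes called higher). The second probe gave 1.06 (adjusted p = 0.047), and the call was also lost in 5 of 6 fits without 1 array (0.87, adjusted p = 0.19, without d3 G+ replicate 2), with a normexp offset of 50, with no background correction and with slide as a fixed block. It was at least 7.17-fold higher in d4 G+ (2.84, limma adjusted p = 3.71e-06; 1.61% of probes called higher). The bounds were 20.9-fold in d5 Glow (1.87% of probes called higher), 164-fold in Ghigh (1.94%) and 197-fold in d6 G+H- (2.8%). In d3 G- and d4 G- cells the difference from mESCs was 0.46 on the log2 scale at both days (95% interval -0.41 to 1.33 at d3 and -0.40 to 1.33 at d4), and neither was called.

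At d3 the sort on the Gsc reporter did not separate Sox17 beyond the spread of the arrays. The G- arrays read 5.69, 5.51 and 5.24 and the G+ arrays 5.40, 7.93 and 6.39, so that the groups overlapped and G+ was higher in 7 of 9 pairs. The log2 fold change was 1.09 (95% interval 0.23 to 1.96, limma adjusted p = 0.195; 0.372% of probes called higher). Without d3 G+ replicate 2 it was 0.41 (adjusted p = 1) and without replicate 1 it was 1.68 (adjusted p = 0.0158). At d4 the G- arrays read 5.66, 5.36 and 5.45 and the G+ arrays 9.20, 6.60 and 7.80. Every d4 G+ array was above every G- array, and Sox17 was called higher in G+ by 2.38 on the log2 scale (SE 0.43, 5.19-fold, limma adjusted p = 0.000363), in a comparison with 0.409% of probes called higher. Without d4 G+ replicate 1, the array at 9.20, the difference was 1.71 with an adjusted p of 0.0132. The gap between G+ and G- was 1.28 wider at d4 than at d3 (SE 0.60, limma adjusted p = 1), and limma called 0 probes for this widening, with 1619 at an unadjusted p under 0.05.

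The d3 G+ and d4 G+ groups were also where the Sox17 arrays differed most among themselves. Their SDs were 1.27 and 1.30, against 0.11 to 0.41 in the other 12 groups. The SE of 0.43 in the Sox17 comparisons comes from 1 spread shared by all 14 groups, so it is not that of the compared arrays alone. In d3 G+ the highest array was replicate 2, and 11 of the 14 definitive endoderm markers peaked on that array as well. Of the largest other lists, 3 of 16 SOX genes outside SoxF and 4 of 20 endothelium and blood genes did so. The share over all genes was not counted. The mean log2 level of the definitive endoderm list was 9.32, 10.55 and 10.32 on the d3 G+ replicates 1, 2 and 3. In d4 G+ the highest array was replicate 1, where 6 of the 14 markers and 7 of the 16 SOX genes outside SoxF peaked. The definitive endoderm list means were 10.32, 10.17 and 10.46. Thus Sox17 and the definitive endoderm list had the same order over the 3 d3 G+ arrays. At d4 the list was nearly level across G+ arrays that ran from 6.60 to 9.20 in Sox17.

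At d5 Sox17 was graded along the Gsc reporter. G- cells read 7.75, 7.56 and 7.02, Glow cells 9.50, 9.10 and 9.62, and Ghigh cells 12.21, 12.11 and 12.82, with no overlap between neighbouring groups. The mean of Glow and Ghigh exceeded G- by 3.45 on the log2 scale (SE 0.37, limma adjusted p = 1.4e-07), the highest rank of 20972 genes in a comparison with 0.241% of probes called higher. Glow exceeded G- by 1.96 (SE 0.43, 3.9-fold, limma adjusted p = 0.00844; 0.0647% of probes called higher), a call that was lost when the second scan day was left out (1.64, adjusted p = 0.278) and when any array but d5 G- replicate 1 was left out (1.75 to 2.02 for d5 G-, 1.86 to 2.12 for Glow). Ghigh exceeded Glow by 2.97 (SE 0.43, 7.86-fold, limma adjusted p = 0.000129; 0.108% of probes called higher). That step was 2.86 within the first scan day and 3.20 within the second, and its adjusted p was 0.0531 with only the arrays of both groups in the fit.

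The 14 definitive endoderm markers include Gsc, whose reporter defined these groups. Of the 14, 9 were called higher in the mean of Glow and Ghigh than in G- (0.539% of all genes, with 1.16% lower), and 2 in Ghigh than in Glow (0.243% of all genes, with 0.0238% lower). The latter were Hhex, a homeobox gene of the anterior endoderm, at 2.13 (SE 0.40), and Shisa2, a regulator of Wnt and FGF receptors, at 1.85 (SE 0.35). Sox2, the pluripotency factor that pairs with Pou5f1, went the other way, at -2.11 (SE 0.21) for the mean of Glow and Ghigh against G- and -1.73 (SE 0.25) for Ghigh against Glow, and both were called.

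From day to day, Sox17 took its largest step between d4 G+ and d5 Ghigh. That step was 4.52 on the log2 scale (SE 0.43, 22.9-fold, limma adjusted p = 1.19e-08; 0.334% of probes called higher), and all 9 pairs of arrays were higher in d5 Ghigh. The earlier step from d2 to d3 G+ was called at 1.72 (SE 0.43, limma adjusted p = 0.00391; 1.51% of probes called higher) but was 1.04 with an adjusted p of 0.105 without d3 G+ replicate 2. From d3 G+ to d4 G+ the difference was 1.29 (limma adjusted p = 0.394), and from d4 G+ to d5 Glow it was 1.54 (limma adjusted p = 0.0784). After d5 Ghigh the level moved by less than the spread between arrays. The d6 G+H- arrays read 12.31, 12.84 and 12.79 and differed from d5 Ghigh by 0.27 (95% interval -0.60 to 1.13, limma adjusted p = 0.908).

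In cells without the Gsc reporter, Sox17 stood above its mESC level by d5. The d5 G- arrays lay above every d4 G- array, with a difference of 1.95 (SE 0.43, 95% interval 1.09 to 2.82) that did not pass (limma adjusted p = 0.0543; 0.0144% of probes called higher), while d4 G- and d3 G- differed by 0.01 (95% interval -0.86 to 0.87). Against mESCs, Sox17 was called higher in d5 G-, by at least 5.35-fold (log2 fold change 2.42, SE 0.43, limma adjusted p = 8.15e-05; 1.06% of probes called higher). The d5 G- mean of 7.44 ± 0.38 (SD, n = 3) was close to the d4 G+ mean of 7.87 ± 1.30, and the arrays of these neighbours in the order overlapped.

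The Hhex reporter did not divide the SoxF genes at d6. Between G+H+ and G+H- the log2 fold change was -0.05 for Sox17 (95% interval -0.92 to 0.82), 0.11 for Sox7 (-0.51 to 0.72) and 0.25 for Sox18 (-0.41 to 0.90). Limma called 0 of the 55681 probes in either direction (0% for each), with 2514 at an unadjusted p under 0.05.

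**Figure D2:**
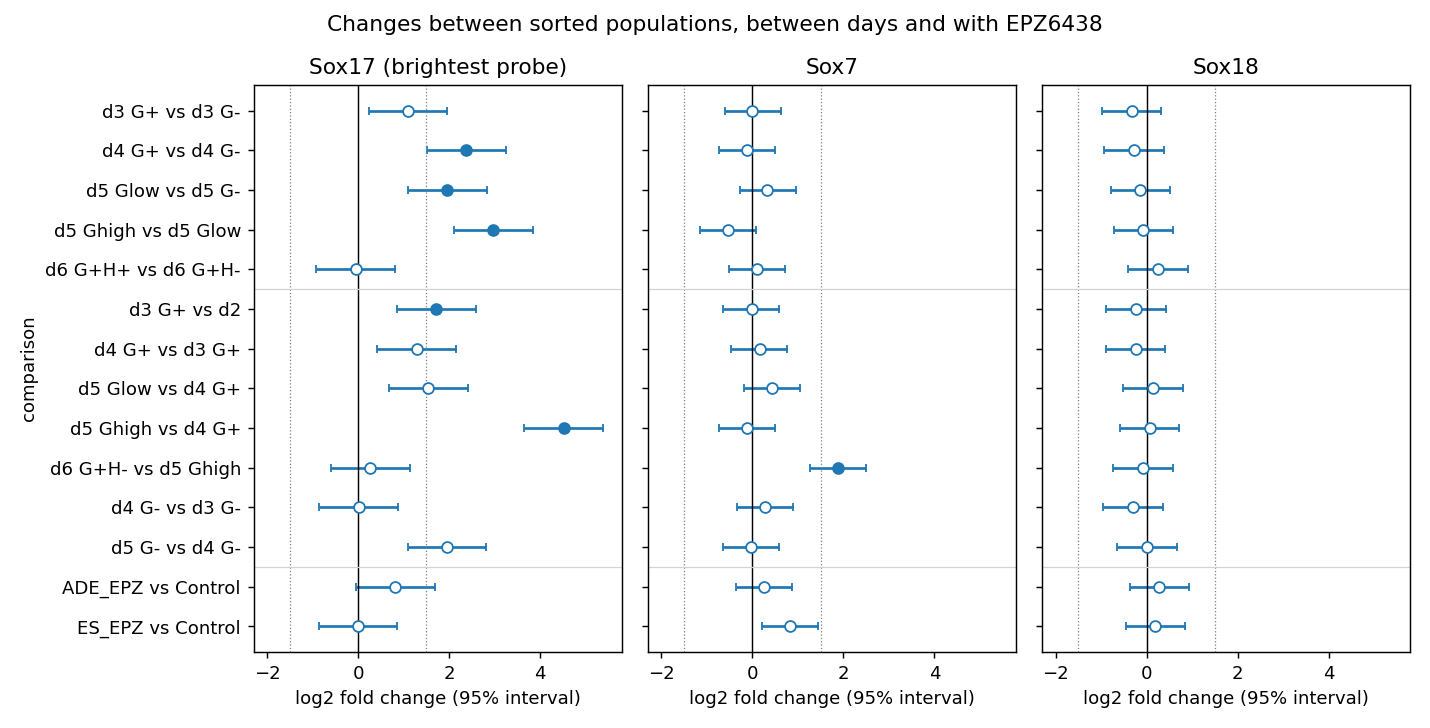
Log2 fold change with its 95% interval for Sox17 (brightest probe), Sox7 and Sox18 in 14 comparisons, between sorted populations of 1 day (top), between days (middle) and between regimens (bottom); filled points were called and dotted lines mark 1.5. Within a day, Sox17 was called for G+ against G- at d4 (2.38) and for Glow against G- (1.96) and Ghigh against Glow (2.97) at d5. Between days it was called from d2 to d3 G+ (1.72) and from d4 G+ to d5 Ghigh (4.52). Sox7 was called from d5 Ghigh to d6 G+H- (1.88), and Sox18 in none of these comparisons.

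Sox7 rose a day after the main rise of Sox17. Before d6 it was well above background on 2 of 3 arrays each in mESCs, d5 Glow and d5 Ghigh, and on fewer in the other groups. These counts do not rank the groups by level. For Sox7, d5 Ghigh replicate 1 was marked above background at 4.89, while d4 G- replicate 2 was not at 5.29. The mESC arrays read 5.22, 5.57 and 5.71 for Sox7, and the d5 Ghigh arrays, where Sox17 was already bright, lay between 4.77 and 4.93. In d6 G+H- the arrays read 7.01, 6.13 and 7.09, and in d6 G+H+ 7.13, 6.32 and 7.12. Of the 42 arrays, 26 were well above background for Sox7, among them all 15 of the d6 groups of both series. From d5 Ghigh to d6 G+H- Sox7 rose by 1.88 on the log2 scale (SE 0.30, 3.68-fold, limma adjusted p = 8.74e-05), in all 9 pairs of arrays, where 0.726% of probes were called higher. The step was 1.74 within the first scan day and 2.16 within the second. It was under the fold threshold with a normexp offset of 50 (1.12) or with no background correction (1.33), and over it with an adjusted p of 0.0308 when the processed signal was scaled to its 75th percentile (2.74).

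Against mESCs the d6 difference in Sox7 stayed under the fold threshold. It was 1.25 for G+H- (SE 0.30, limma adjusted p = 0.00174) and 1.35 for G+H+ (SE 0.30, limma adjusted p = 0.000638), with every d6 array above every mESC array. Without d6 G+H+ replicate 2, the lowest of its group, the latter was 1.62 and passed. The d2 to d5 groups had means from 4.82 to 5.40, below the mESC mean of 5.50, and 0 of these 8 differences from mESCs were called; 4 of the 8 had a 95% interval that lay below 0.

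Markers of extraembryonic endoderm, another tissue that uses Sox7, were also higher at d6. Of 9 such genes, 6 were called higher in d6 G+H+ than in mESCs (5.79% of all genes), with a median of 1.92 against 0 over all genes. Hnf4a, a nuclear receptor of visceral endoderm and liver, was at least 96.4-fold higher and Ttr, a thyroid hormone carrier, at least 19.1-fold higher, both not above background in mESCs. Pdgfra, a receptor found on primitive endoderm and mesoderm, was higher by 2.90 (SE 0.46), but it had its highest mean in d5 Ghigh, at 10.84, and stood at 9.16 in d6 G+H- and 7.71 in G+H+. From d5 Ghigh to d6 G+H- 2 of the 9 were called higher (1.39% of all genes). These were Foxa3, a forkhead factor of endoderm, at 1.84 (SE 0.31) and Amn, a receptor subunit of visceral endoderm, at 1.58 (SE 0.25). Afp, a defining marker of visceral endoderm and yolk sac, was above background on 2 of 3 arrays in d6 G+H+ at a mean of 5.10. The mean level of the list ran from 5.30 to 5.69 in mESCs, from 6.91 to 7.35 in d5 Ghigh and from 7.82 to 8.32 over both d6 populations, and 8 to 9 of its genes were above background at d6. Of 8 matrix genes of parietal endoderm, 6 were called higher and 1 lower in d6 G+H+ than in mESCs (5.79% and 5.33% of all genes), with 3 higher under 75th percentile scaling or without the second scan day. Col4a1, a collagen chain of basement membrane, was higher by 2.48 (SE 0.34), while the laminin chain Lama1 changed by -2.69 (SE 0.65). Early mesoderm genes went the other way between these days, with 5 of 7 called lower from d5 Ghigh to d6 G+H- (0.782% of all genes), led by Mesp1, a factor of cardiac mesoderm (-4.20, SE 0.72). Against mESCs 1 of these 7 was called higher in d6 G+H+ (5.79% of all genes), Tbx6, a factor of paraxial mesoderm (1.70, SE 0.38). The count was 0 with a normexp offset of 50 or with no background correction. The part of these cell types in the Sox7 level was not tested.

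Sox18 was highest in mESCs, at low intensity. The mESC arrays read 5.43, 5.98 and 6.46, all 3 above background, and the highest of the other group means was 5.37, in d3 G-. Only 12 of 42 arrays were well above background, and mESCs and d3 G- were the only groups with all 3 arrays above it. In the other groups each array above background was replicate 3, scanned on the later day. In d4 G+ the arrays lay between 4.66 and 4.99 and in d6 G+H- between 4.49 and 5.29, with no array above background in either group and no overlap with mESCs. Sox18 was thus at least 2.23-fold lower in d4 G+ (log2 fold change -1.16, SE 0.32, limma adjusted p = 0.00795) and at least 2.24-fold lower in d6 G+H- (-1.16, SE 0.32, limma adjusted p = 0.00595), both under the fold threshold and therefore not called. With the processed signal scaled to its 75th percentile the same differences were -2.77 and -2.61, and both passed. At the other end of the alternatives they were -0.62 and -0.61. No Sox18 difference was called in the 28 comparisons. The share of probes called lower was 2.74% for d4 G+ and 3.22% for d6 G+H- against mESCs.

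Replicate 3 was the highest of the 3 Sox18 arrays in 11 of 11 untreated groups, by a median of 0.59 over the mean of the other two. Over all probes, 3.84% had replicate 3 highest in all 11 groups. For Sox17 and for Sox7 this was so in 3 of 11 groups each. Replicate 3 of the untreated series was scanned on the later day. Within the first scan day Sox18 differed between d6 G+H+ and mESCs by -0.87 and within the second by -1.01. In d5 Ghigh the Sox18 arrays read 4.33, 4.36 and, for replicate 3, 5.91. Without that array the difference from mESCs was -1.61 and passed, against -1.09 with it.

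Sox18 and Sox7 are best known from endothelium, whose genes were measured too. Of 20 endothelium and blood genes 2 were called higher and 3 lower in d6 G+H+ than in mESCs (5.79% and 5.33% of all genes), with a median of -0.27; with a normexp offset of 50, 0 were called lower. Flt1, a VEGF receptor, was higher by 5.79 (SE 0.41) and Runx1, a factor of blood formation, by 3.19 (SE 0.46). Esam and Tek, a junction protein and an angiopoietin receptor of endothelium, were at least 4.63- and 4.44-fold lower and not above background in d6 G+H+. Among defining endothelial genes, Cdh5 was above background on 0 of 3 d6 G+H+ arrays, Erg on 0 and Tie1 on 0, while Pecam1 was above it on all 3 at a mean of 6.43 and Kdr, a VEGF receptor also found in mesoderm, at 10.68. The mean level of the list was 6.74 to 7.06 in mESCs and 6.85 to 7.07 over both d6 populations.

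Sox17 was set against the 16 other SOX genes measured. Of these, 3 were called higher in d6 G+H+ than in mESCs and 2 lower (1 with a normexp offset of 50), against 5.79% and 5.33% of all genes. Sox9, a factor of cartilage, gut and many progenitors, was higher by 2.91 (SE 0.49, limma adjusted p = 1.48e-05), Sox3 by 2.72 (SE 0.22) and Sox4 by 2.48 (SE 0.30). Sox2 was lower by a log2 fold change of -6.73 (SE 0.25, limma adjusted p = 6.74e-20) and Sox15, a SOX gene of stem cells, by -2.07 (SE 0.28). Thus Sox17 and Sox2 stood at the ends of the SOX genes, at 7.57 and -6.73. At d5 the group means of Sox2 were 9.76 in G-, 8.51 in Glow and 6.78 in Ghigh, the reverse of the Sox17 order. Elsewhere the orders parted, since Sox2 went from 12.02 in mESCs to 11.10 at d2 and 9.78 in d4 G- while Sox17 stayed near background, and from 7.77 in d4 G+ to 8.51 in d5 Glow, where Sox17 was higher too.

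**Figure D3:**
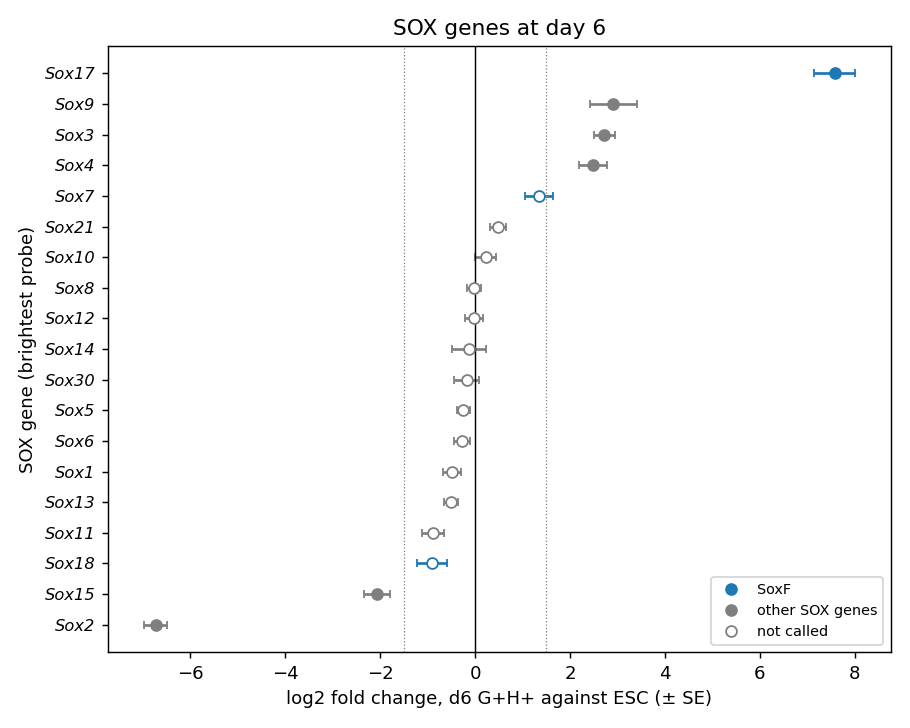
Log2 fold change (± SE) of d6 G+H+ against mESCs for the 3 SoxF genes (blue) and 16 other SOX genes (grey), brightest probe each; filled points were called and dotted lines mark 1.5. Sox17 at 7.57 and Sox2 at -6.73 lay at the ends, with Sox7 (1.35) and Sox18 (-0.91) between them and not called.

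SoxF proteins act on DNA together with other factors. Of 9 genes listed here as partners, 1 was called higher and 2 lower in d6 G+H+ than in mESCs, beside the same 5.79% and 5.33%. Binding of SoxF proteins together with the listed factors was not measured. Tcf7l2, a Wnt effector, was higher by 2.20 (SE 0.17). Pou5f1, which pairs with Sox2 in stem cells and can pair with Sox17 in endoderm, changed by -5.91 (SE 0.63), and Nanog by -5.18 (SE 0.36).

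The genes whose group means followed Sox17 most closely, among 4806 with a varying and detected probe, were Rab38 (Pearson r 0.988 over 14 groups), Lgr5 (0.983), Prokr1 (0.981), Tnks (0.981) and Cfc1 (0.978). Rab38 is a small GTPase, Lgr5 a receptor of R-spondins, Prokr1 a prokineticin receptor, Tnks a poly-ADP-ribosyltransferase and Cfc1 a Nodal co-receptor. The closest to Sox7 were Il3ra (0.977), Kcnn3 (0.972), Defb36 (0.968), Tmprss6 (0.966) and Cystm1 (0.965), and the first 4 encode an interleukin receptor chain, a potassium channel, a defensin and a serine protease. Defb36 averaged 5.10 at d5 Ghigh, 7.07 at d6 G+H- and 9.14 under ES_EPZ, the last its highest, as for Sox7. The closest to Sox18 were Sema4b (0.952), Klf3 (0.951), Lrrn4cl (0.951), Helb (0.946) and Itgb7 (0.937), each with its highest group mean in mESCs. These are descriptions of group means that share arrays, and Sox18, with an SD of 0.36 over groups, follows a narrow range.

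**Figure D4:**
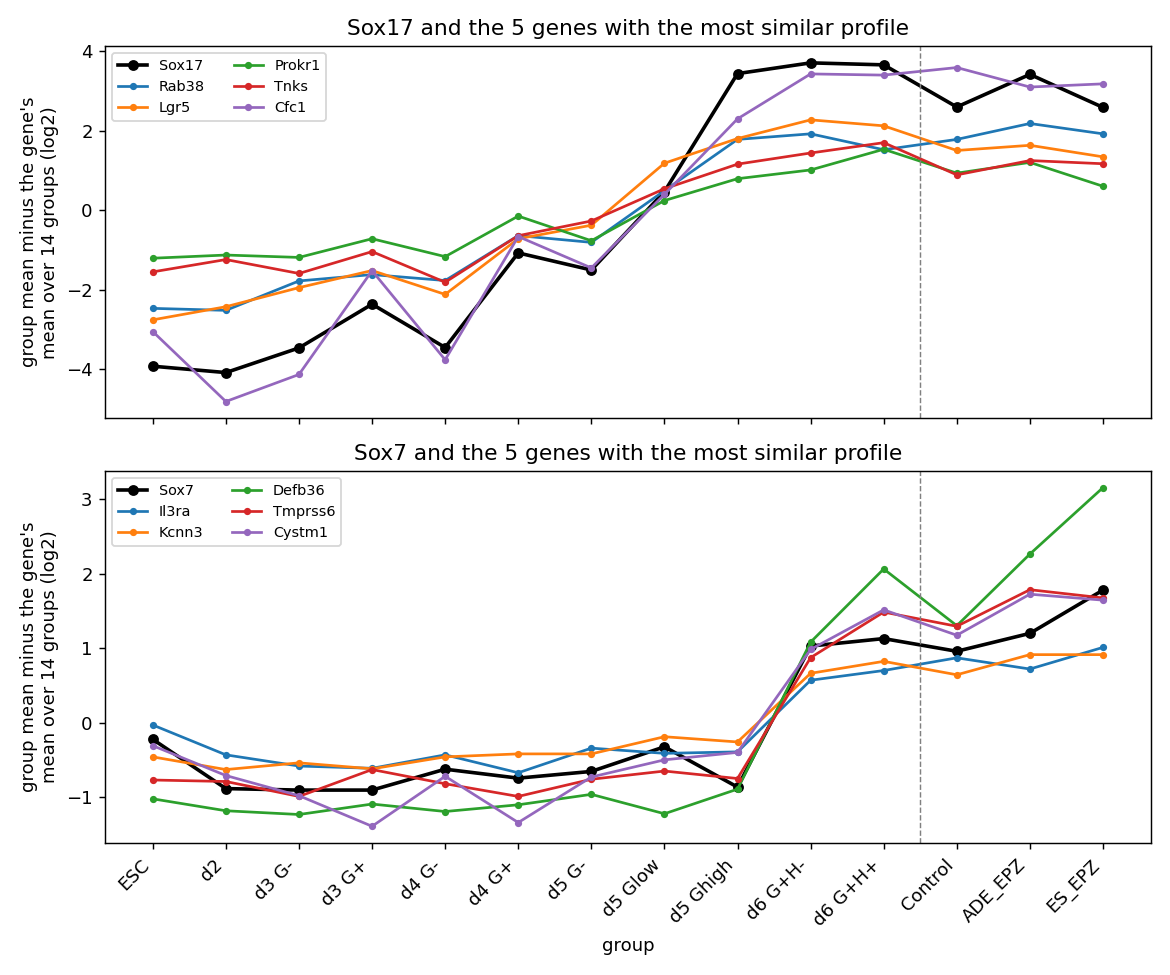
Group means of Sox17 and Sox7 (black) and of the 5 genes most correlated with each over the 14 groups, each minus the mean of that gene over the groups, in log2 units; the dashed line separates the untreated from the EPZ6438 series. The Sox17 set climbed from d4 to d6 with a correlation of 0.978 or more, and the Sox7 set was flat to d5 and higher in the d6 groups.

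In the EPZ6438 series no SoxF probe was called between regimens. Sox17 read 11.20, 11.82 and 11.60 in Control, 12.21, 12.60 and 12.28 in ADE_EPZ, and 11.27, 11.83 and 11.51 in ES_EPZ. Every ADE_EPZ array was above every Control and every ES_EPZ array. The log2 fold change of ADE_EPZ against Control was 0.82 (SE 0.43, 95% interval -0.04 to 1.69, limma adjusted p = 0.285), and 1.07 for the second probe (limma adjusted p = 0.063), where 0.97% of probes were called higher. This SE and interval rest on the spread shared by all 14 groups, while the SDs were 0.31 in Control and 0.20 in ADE_EPZ. Within the 3 slides the Sox17 difference of ADE_EPZ from Control by the brightest probe was 1.40, 0.46 and 0.61. On each slide the Control array had another replicate number than the EPZ6438 arrays, so replicate number would pair Control otherwise. In every regimen Sox17 was lowest in replicate 1 and highest in replicate 2. The differences from Control within slides thus set different replicate numbers against each other. ES_EPZ and Control differed by -0.01 (95% interval -0.87 to 0.86), with 0.199% of probes called higher. The direct comparison of ADE_EPZ with ES_EPZ gave 0.83 (95% interval -0.04 to 1.70, limma adjusted p = 0.596; 0.0593% of probes called higher), and 0.77, 0.77 and 0.95 within the slides.

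For Sox7 the regimens stood in another order. Control read 6.82, 6.70 and 6.50, ADE_EPZ 7.04, 6.35 and 7.38, and ES_EPZ 7.69, 6.89 and 7.92. Every ES_EPZ array was above every Control array, while ADE_EPZ overlapped both. ES_EPZ exceeded Control by 0.82 (SE 0.30, 95% interval 0.21 to 1.44, limma adjusted p = 0.181), and by 0.06, 1.22 and 1.18 within the slides. ADE_EPZ exceeded Control by 0.25 (95% interval -0.37 to 0.86) and differed from ES_EPZ by -0.58 (95% interval -1.19 to 0.04, limma adjusted p = 0.616), with -0.54, -0.54 and -0.65 within the slides. The slide with the lowest Sox7 under both EPZ6438 regimens had the highest Sox17 under both, while its Control array had the highest Sox7 and the lowest Sox17 of the Control arrays. That slide held replicate 2 of both EPZ6438 regimens and replicate 1 of Control. Within the arrays of ADE_EPZ and ES_EPZ alone, slide and replicate cannot be told apart. Control replicate 2 lay on another slide. It had the highest Sox17 of the Control arrays (11.82), and its Sox7 (6.70) lay between those of the other Control arrays. The parts of slide and replicate were not tested. Sox18 was above background on 0 of these 9 arrays, and no fold is given.

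**Figure D5:**
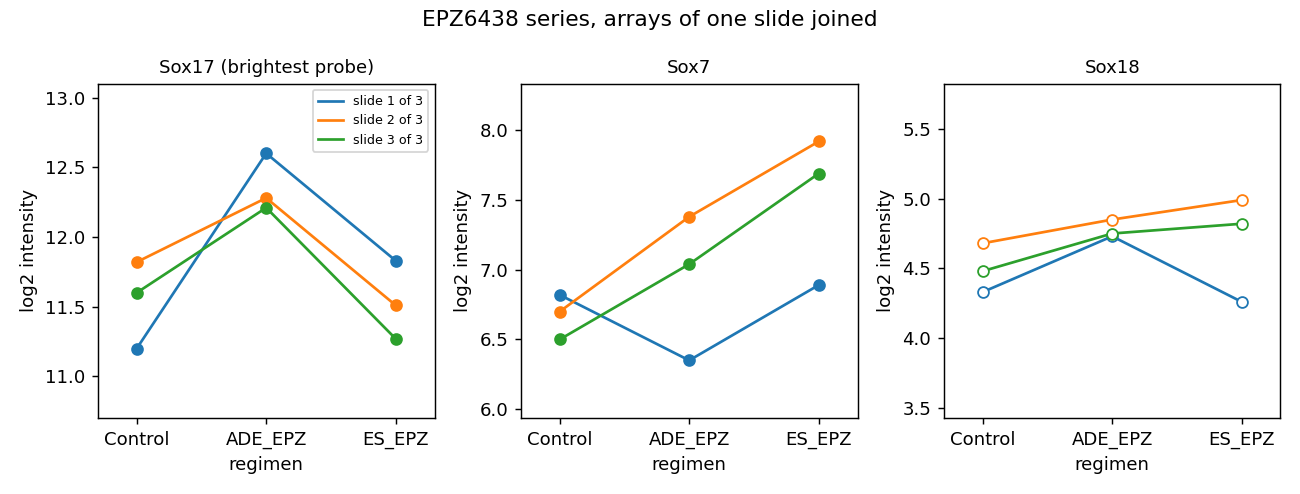
Log2 intensity of Sox17 (brightest probe), Sox7 and Sox18 in the Control, ADE_EPZ and ES_EPZ cultures, with the arrays of 1 slide joined by a line, open symbols where the probe was not well above background and the same vertical span in each panel. Sox17 was higher in ADE_EPZ than in Control on all 3 slides (0.46 to 1.40), and Sox7 was higher in ES_EPZ than in Control on all 3 (0.06 to 1.22). The Control array of each slide had another replicate number than its EPZ6438 arrays.

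Some genes of the lists did change with the inhibitor. In ADE_EPZ against Control 2 of 14 definitive endoderm markers were called higher and 1 lower (1.97% and 0.801% of all genes). Hhex was higher by 2.23 (SE 0.40) and Shisa2 by 2.04 (SE 0.35), and Mixl1, a homeobox gene of the primitive streak, changed by -3.34 (SE 0.34). Of the 8 parietal endoderm matrix genes 2 were called higher (1 with a normexp offset of 50): Plat, the tissue plasminogen activator, at 2.28 (SE 0.44) and Thbd, thrombomodulin, at 1.77 (SE 0.42). The mean level of that list was 10.94 to 11.34 in Control, 12.05 to 12.20 in ADE_EPZ and 11.35 to 11.39 in ES_EPZ. Limma called 0 of the 9 extraembryonic endoderm genes in either regimen, with 3 at an unadjusted p under 0.05 in each, and their mean level was 8.14 to 8.38 in Control, 8.14 to 8.73 in ADE_EPZ and 7.33 to 8.37 in ES_EPZ. Of the 16 SOX genes outside SoxF, limma called 0 in either regimen, with 7 at an unadjusted p under 0.05 in ADE_EPZ and 5 in ES_EPZ. Among the genes listed as partners, Lef1, a Wnt effector, was lower in ADE_EPZ, with a log2 fold change of -1.76 (SE 0.36). Of 8 naive pluripotency genes 2 were called higher in ADE_EPZ, Tfcp2l1 (2.11, SE 0.35) and Zfp42 (1.51, SE 0.34), and 1 lower, Tbx3 (-3.34, SE 0.71). In the other lists 1 early mesoderm gene, Msx2 (-3.45, SE 0.66), and 1 endothelium and blood gene, Etv2 (-2.20, SE 0.39), were called lower. In ES_EPZ against Control, Mixl1 (-1.72, SE 0.34) was the only one of the 91 listed genes called, against 0.062% of all genes called lower. Whether the makeup of the cultures has a part in the SoxF differences was not tested.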

How the data were processed

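Total RNA was labelled with Cy3 and hybridised to one-colour Agilent mouse arrays. The authors deposited, for each of 42 arrays, scanner files with median foreground and background intensity per spot, and a table of log2 intensity made by normexp background correction (offset 10) and quantile normalisation with limma. The deposited log2 values were used, with spots of 1 probe averaged. They had a correlation of at least 0.999979 on each array with values recomputed here from the deposited intensity. Marks for signal well above background came from the scanner files. Only the number of arrays limits the precision; there is no read depth.

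Limma 3.58.1 in R 4.3.3 (statmod 1.5.0 for the slide correlation) estimated the 14 group means from all arrays and 55681 probes, with moderated standard errors and Benjamini-Hochberg adjustment over all probes of each of 28 comparisons. With 3 arrays against 3, permutation cannot give p under 0.1, so all adjusted p values are from limma. A fold against a group in which the probe was above background on no array is a lower bound for that probe, taken against the higher of the probe and the dimmest probe above background on each array. Such a bound allows for background only, not for the spread between arrays, another probe of the gene or the processing. Where a gene had several probes, the brightest stands for it. RefSeq accessions were named by a table of assembly GRCm38.p6, which held 21865 of 23171; 0 of the 3 members matched the promoter table.

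The members, the 8 gene lists (91 genes) and the tests were chosen with earlier results of these data known. Named genes are all member probes, the 5 genes most correlated with each member, and at most 3 called genes of largest change per list and direction, with defining markers. Same-numbered arrays deviated together between sorted populations of 1 day (correlation 0.20 to 0.67 over all probes), so replicate number pairs those samples, on the evidence of the arrays. Some of these arrays also shared a slide, and replicate 3 was scanned on the later day. Between ADE_EPZ and ES_EPZ the correlation was 0.22 to 0.30, but their same-numbered arrays shared a slide, so pairing and slide cannot be told apart. With Control, whose same-numbered arrays lay on other slides, it was 0.07 to 0.17 for ADE_EPZ and -0.06 to 0.14 for ES_EPZ. Alternatives were recomputed values, other background corrections, scalings, filters, samples and blocks, and leaving out each array. The fit was tested on simulated data.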

Additional observations from a re-analysis of the deposited data

How the results depend on the processing

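Of 1576 recomputed SoxF values, 1532 kept their side of the threshold, and 81 turned sign, each without a call. The causes of the changes were not tested, except that fewer arrays leave fewer degrees of freedom. Replicate number as a block changed 0 of 84 calls (Sox17 in d4 G+ against G-, 2.38, adjusted p = 0.000417). The following Sox17 calls were lost. With only the compared arrays these were d3 G+ against ESC (1.55) and d2 (1.72), d4 G+ against G- (2.38), d5 Glow against G- (1.96), Ghigh against Glow (2.97) and Ghigh against d4 G+ (4.52). With the second scan day left out, a setting chosen after seeing the data, they were d3 G+ against ESC (1.59) and d2 (1.88), d4 G+ against G- (2.39), Glow against G- (1.64) and Ghigh against Glow (2.86). For d3 G+ against ESC and d2 they were lost with a normexp offset of 50 (0.98 and 1.06), no background correction (1.16 and 1.29) and the other probe (1.06 and 1.28), and for Glow against G- with 75th percentile scaling (2.15). Slide as a fixed block ended the calls of d3 G+ against ESC (1.55) and Glow against G- (1.89). For Sox7, d6 G+H- against d5 Ghigh was lost with offset 50 (1.12), no background correction (1.33), 75th percentile scaling (2.74) and only the compared arrays (1.88), and d6 G+H+ against ESC passed with slide as a fixed block (1.5). With 75th percentile scaling Sox18 passed as lower in d4 G+ (-2.77) and d6 G+H- (-2.61) than in ESC. Leaving out 1 array at a time changed calls for Sox17 in d3 G+ against ESC (0.87 to 2.14) and d2 (1.04 to 2.31), d4 G+ against G- (1.71 to 3.01) and Glow against G- (1.75 to 2.12), for Sox7 in d6 G+H- (1.07 to 1.55) and G+H+ (1.22 to 1.62) against ESC, and for Sox18 in d5 Ghigh against ESC (-1.61 to -0.82). For Sox17 in d3 G+ against G-, not called in any of these fits, it gave 0.41 to 1.68. Counts over lists, whose alternatives were also chosen after seeing the data, moved in d6 G+H+ against ESC to 1 SOX gene lower (offset 50), 3 parietal genes higher (75th percentile scaling, and the second scan day left out), 0 endothelium genes lower (offset 50) and 0 mesoderm genes higher (offset 50, no background correction). In ADE_EPZ against Control they moved to 1 parietal gene higher (offset 50, no background correction, 75th percentile scaling, only the compared arrays) and 1 naive pluripotency gene higher (offset 50, no background correction). With only the compared arrays, probes called higher numbered 0 for Ghigh against Glow, 0 for d6 G+H- against d5 Ghigh, 39 for d5 Glow and Ghigh against G- and 0 for ES_EPZ against Control, against 60, 404, 134 and 111. Sox18 outside mESCs and d3 G-, and mESC Sox17 by the brightest probe, lay at or near background. Differences are bounds only where the probe was above background on no array of a group.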
